A study of Mus musculus with 3 samples.

Results

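The cytosolic ribosomal protein genes were 84 of 20608 named genes that could be read on these arrays. They were taken as every gene whose probes carry a RefSeq mRNA accession and whose current mouse symbol is Rpl or Rps with a number, Rplp0 to Rplp2 or Rpsa. Pseudogenes and the Rps6k kinases were left out. These genes held 174 of the 55681 probes on each array. Of the 84 genes, 77 were ribosomal proteins proper (31 of the small and 46 of the large subunit) and 7 were paralogues with an l in the suffix, which are described apart. Single probes stood for 31 genes, whereas 53 genes had between 2 and 7 probes.

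The samples were 3 RNA preparations, replicates 1 to 3 of 1 group, from J1 mouse embryonic stem cells (mESCs) of strain 129S4/SvJae, a line derived from the inner cell mass. The cells were gelatin adapted, grown without feeders in medium with leukemia inhibitory factor (LIF, 1000 U/mL) and treated with 1 µM PD0325901 (PD) for 24 h. PD is a small molecule inhibitor of MEK, the kinase that activates ERK. No untreated cells were analysed here, so no value below is a response to PD, and the only comparisons are between replicate arrays. Each sample was hybridised in 1 colour to its own Agilent array of 1 slide, and the precision is limited by the number of arrays. As a level, the log2 of the scanner's processed signal is given relative to the 75th percentile of the array's signals, which was 619, 578 and 594 signal units on replicates 1 to 3. Per the study's methods the samples came from independent experiments, so the SD between arrays covers the cultures as well as the hybridisation.

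Each ribosome joins a small subunit, which reads the mRNA, to a large subunit, which forms the peptide bond, and both are built from ribosomal RNA and about one copy of each ribosomal protein. The mRNAs of these proteins are among the most abundant in dividing cells. Most begin with a C followed by a run of pyrimidines, the terminal oligopyrimidine (TOP) tract, through which mTOR signalling and the RNA-binding protein Larp1 set how much of the mRNA is translated. ERK reaches the same machinery by way of the RSK kinases, which phosphorylate the small subunit protein Rps6. An array measures the mRNA only, so neither translation nor phosphorylation was measured.

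Start site sequences are shown first because the TOP tract is the feature by which these mRNAs are known. RefSeq promoter sequences on build GRCm38.p6 were matched for 64 of the 84 genes, with 76 annotated start sites. A C followed by at least 4 pyrimidines stood exactly at 14 of the 76 start sites (18.4%), against 2.51% of the 32851 start sites of all genes and 2.78% of those in the brightest 25% of the detected genes. Within 10 bases of the start such a run was found at 42 of the 76 sites (55.3%), against 30.7% of all start sites. Each window below holds 15 bases before and 15 from the start, on the strand of the gene, and capitals mark the run that begins at the start.
Rpl15, chr14:18270972-18271001, minus strand: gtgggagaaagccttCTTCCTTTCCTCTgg
Rpl35, chr2:39005117-39005146, minus strand: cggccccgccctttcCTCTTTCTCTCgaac
Rps10, chr17:27635230-27635259, minus strand: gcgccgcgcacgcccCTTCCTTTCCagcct
Rps6, chr4:86857353-86857382, minus strand: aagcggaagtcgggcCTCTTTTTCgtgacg
Rps18, chr17:33955651-33955680, minus strand: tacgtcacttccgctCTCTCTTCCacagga
Rpl38, chr11:114668565-114668594, plus strand: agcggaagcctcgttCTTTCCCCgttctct
Rpl28, chr7:4792950-4792979, plus strand: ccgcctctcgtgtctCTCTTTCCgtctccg
Rpl3l, chr17:24727811-24727840, plus strand: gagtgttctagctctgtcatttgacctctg
Rpl10l, chr12:66284387-66284416, minus strand: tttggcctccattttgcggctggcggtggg
Rps27l, chr9:66946071-66946100, plus strand: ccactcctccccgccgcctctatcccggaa
The first 7 begin with a run of 8 to 13 pyrimidines, the longest being that of Rpl15. The windows of the paralogues Rpl3l, Rpl10l and Rps27l have no such run at the start. Of the 7 paralogues 1 (Rpl32l) began with one, as did 13 of the 57 genes without the l suffix, and within 10 bases of the start 6 of the 7 and 34 of the 57 had one. Over positions 1 to 8 from the start, 60.5% of the bases of these genes were C or T, against 46.6% for all genes. From 50 to 21 bases before the start the shares were 52.4% and 49.8%, and at positions 21 to 50 they were 56.3% and 48.5%, so these genes also held more C or T further into the transcript. No match says only that the letters are not in this window of the annotated start.

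**Figure D1:**
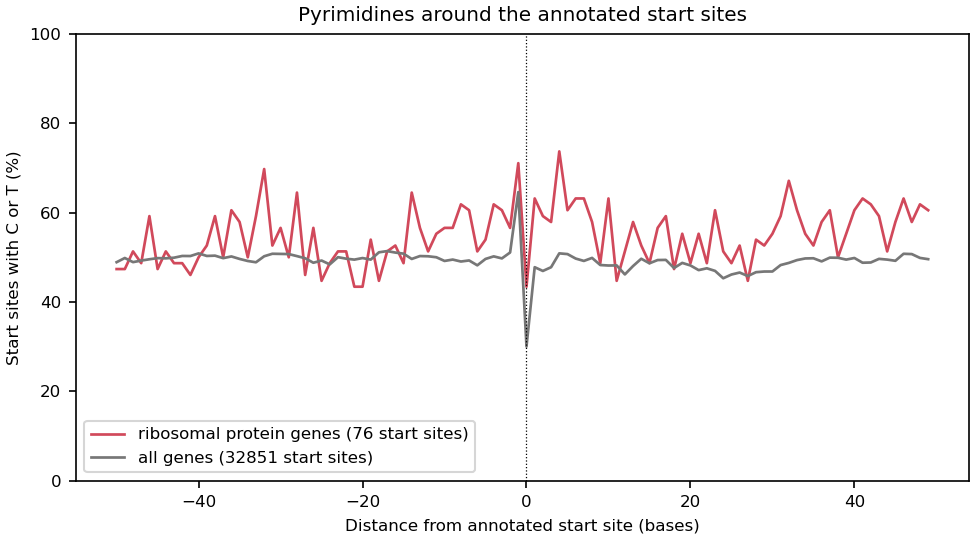
The share of start sites (vertical axis, %) with C or T at each distance in bases from the annotated start (horizontal axis, where 0 is the first transcribed base, position 1 in the text) is plotted for ribosomal protein genes (red, 76 start sites) and all genes (grey, 32851 start sites). Over the first 8 bases the red line averages 60.5% and the grey line 46.6%.

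Other letters were searched on both strands from 250 bases before to 50 bases after the start. CCGGAAG, the core bound by ETS factors, was present at 27 of the 76 start sites (35.5%), against 8.86% of all start sites, 15.1% of those of detected genes and 22.2% of those in the brightest 25%. A 10-base palindrome of CpG-rich promoters (capitals in the first 3 windows below) was present at 7 start sites (9.21%), against 0.466% of all and 1.52% in the brightest 25%. AAGATGGCG, which holds the core bound by YY1, was present at 6 start sites (7.89%), against 1.40% and 3.94%, but 3 of the 6 are overlapping start sites of Rpl35a, and by gene it was 4 of 64 (6.25%) against 4.71% in the brightest 25%. Other start sites of the same gene share their bases in the same way. By gene, CCGGAAG was found in 26 of 64 (40.6%) and the palindrome in 6 of 64 (9.38%), against 25.6% and 1.75% in the brightest 25%. Capitals mark the match in the windows below, which show Rps19, Rps28 and Rpl26 for the palindrome and Rpl31, Rpl11 and Rpl15 for CCGGAAG.
Rps19, chr7:24884574-24884603, plus strand: cactccgaaaTCTCGCGAGActcgacgccc
Rps28, chr17:33824544-33824573, minus strand: ccgcgtgcggTCTCGCGAGAgcgaaagtga
Rpl26, chr11:68901530-68901559, plus strand: gctccgagacTCTCGCGAGAtctcgcggca
Rpl31, chr1:39367848-39367877, plus strand: ctccccgtgacCCGGAAGttgtacggctac
Rpl11, chr4:136053369-136053398, minus strand: aggccacggggCCGGAAGtctccctctctc
Rpl15, chr14:18271030-18271059, minus strand: acaatgccccaCCGGAAGgagggtcgccgg
The palindrome spans a start site of Rps19 and that of Rps28, beginning 8 bases before the former and 1 base before the latter. A match is a description of the letters and was not tested as a site.

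All 84 ribosomal protein genes were detected on all 3 arrays, that is, the probe with the highest mean level was well above its background on each. Over all named genes the share was 72.8%. Of the probes, 173 of 174 were detected on all arrays (99.4%), against 72.4% of the probes with a gene name and 60.3% of all probes. None of the 174 probes was saturated or had a non-uniform spot.

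Nearly all of these probes were among the brightest on the arrays. Over the 77 genes without the l suffix, the brightest probe of each had a mean level between 7.02 (Rpl36a) and 9.31 (Rpl35), with a median of 8.59, while the median over all 15006 detected named genes was 0.44. In signal units these 77 probes ran from 77400 to 379378. Among the 50 named genes with the brightest probes, 24 were ribosomal protein genes, and among the 200 brightest, 76 were. The 174 probes, 0.312% of all, held 11.4%, 11.5% and 11.5% of the summed probe signal of replicates 1 to 3. A probe's signal depends on its own sequence, which the files do not give, as well as on its mRNA, so the order of genes by signal is not an order of mRNA amounts. The medians were 8.49 over the 31 small subunit genes and 8.60 over the 46 large subunit genes.

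**Figure D2:**
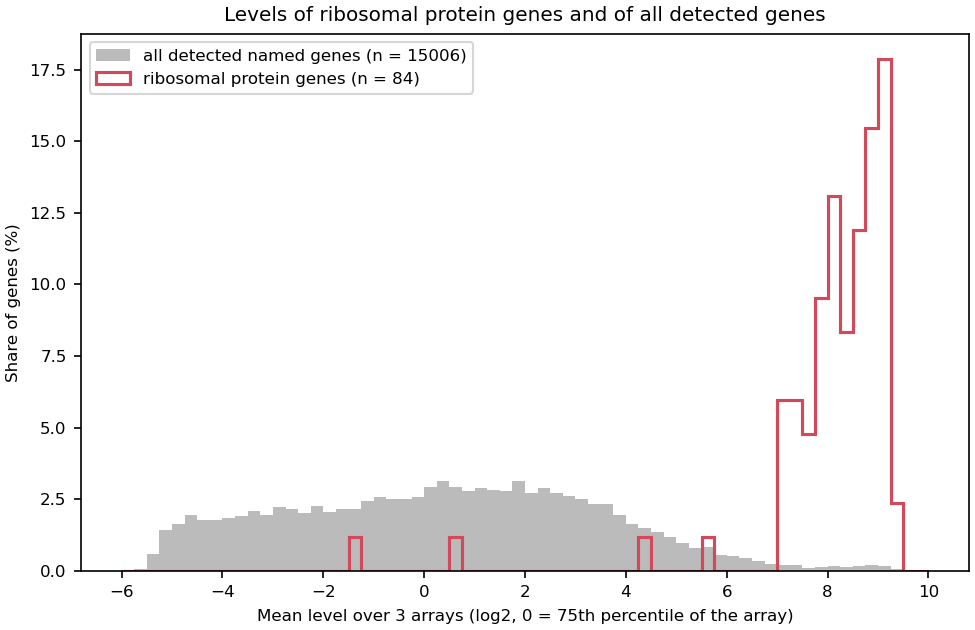
Share of genes (vertical axis, %) by mean level over the 3 arrays (horizontal axis, log2 relative to the 75th percentile of the array) for all 15006 detected named genes (grey) and the 84 ribosomal protein genes (red outline), each by its brightest probe. The 77 genes without the l suffix lie between 7.02 and 9.31, and 5 of the 7 paralogues lie below 7.02.

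Among the proteins of the ribosomal stalk, which recruits the translation factors, Rplp0 had levels of 9.07, 9.13 and 9.07 on replicates 1 to 3. Rplp1, its partner in the stalk, had levels of 8.67, 8.80 and 8.72. Rplp2 had levels of 8.99, 9.01 and 8.99, and its SD of 0.0099 was the second lowest of the 84 genes. Rplp0 is a common reference gene in RT-qPCR. The 3 stalk genes were each highest on replicate 2, by at most 0.13 log2 units. This was not particular to them or to the genes that follow, since 75 of the 84 genes were higher on replicate 2 than on replicate 1, and 42 of 84 after quantile normalization.

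Of the small subunit, Rpsa, which also serves as a precursor of the laminin receptor, had levels of 8.95, 9.10 and 9.01. Rps6, the phosphorylated protein named above, had levels of 8.24, 8.40 and 8.26. Rps3, which lies at the mRNA entry channel and also acts in DNA repair, had levels of 7.35, 7.46 and 7.40. In each of these genes replicate 2 was the highest. Rps14, whose loss underlies the anemia of the human 5q deletion, had levels of 9.13, 9.16 and 9.13. Rps25, needed for initiation at some viral internal entry sites, had levels of 7.78, 7.88 and 7.78. Rps4x, encoded on the X chromosome, had levels of 7.84, 7.98 and 7.94. Rps27a, made as a fusion with ubiquitin, had levels of 9.01, 9.10 and 9.04. None of these 7 genes had a range over 0.16 log2 units.

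Of the large subunit, Rpl5 and Rpl11 bind the 5S ribosomal RNA and, when free, the p53 inhibitor Mdm2. Rpl5 had levels of 7.27, 7.15 and 7.27, and Rpl11 had levels of 9.004, 9.119 and 9.055. Replicate 2 was the lowest for Rpl5 and the highest for Rpl11. Rpl10, a late joining protein of the large subunit, had levels of 8.97, 9.04 and 8.96. Rpl13a, which can leave the ribosome and silence inflammatory mRNAs, had levels of 8.27, 8.37 and 8.26. Rpl38, which is needed for the translation of Hox mRNAs in the embryo, had levels of 8.84, 8.97 and 8.84. Rpl41, the smallest ribosomal protein, had levels of 9.05, 9.11 and 9.04. Rpl36a, the gene with the lowest level of the 77, had levels of 6.96, 7.08 and 7.02. These 5 genes were highest on replicate 2, by at most 0.13 log2 units over the lowest array.

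**Figure D3:**
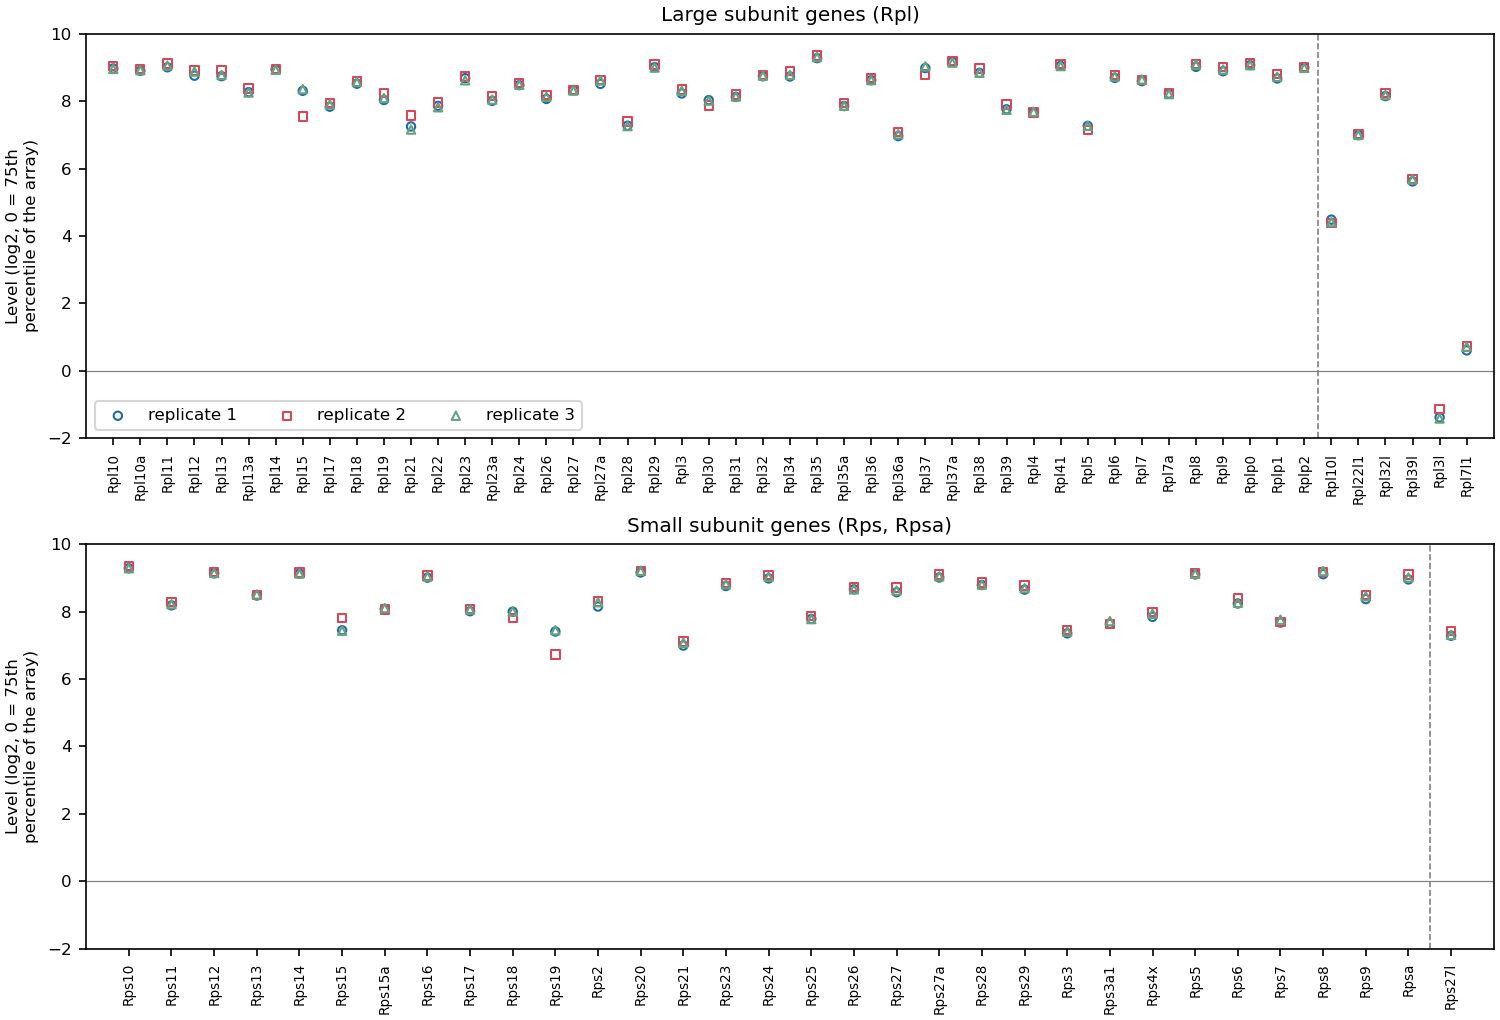
Level of the brightest probe (vertical axis, log2 relative to the 75th percentile of the array) for large subunit genes (upper panel) and small subunit genes (lower panel), with 1 symbol for each replicate. The dashed line sets off the 7 paralogues. For most genes the 3 symbols overlap, while replicate 2 lies below the others for Rpl15 (8.31, 7.55 and 8.36) and Rps19 (7.41, 6.73 and 7.45).

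The 7 paralogues, genes that resemble a ribosomal protein and carry an l in the suffix, were all detected on every array, and their levels ranged widely. Rpl3l, the form of Rpl3 in heart and skeletal muscle, had the lowest level of the 84 genes, with −1.39, −1.13 and −1.42, and signals of 237, 264 and 222 units. The highest negative control spot read 41.7, 533 and 232 units on replicates 1 to 3, so Rpl3l exceeded it on replicate 1 alone. Of 5 skeletal muscle markers, Ckm, Myh1 and Myh2 were well above their local background on no array, whereas Acta1 and Mb were on all 3. The mean signal of Acta1 (176 units) lay below the highest negative control spot of replicates 2 and 3. That of Mb (27.0 units) lay below this spot on all 3 replicates. Rpl7l1, a homologue of Rpl7 that acts in ribosome assembly, had levels of 0.60, 0.72 and 0.71. Only these 2 of the 84 genes fell outside the brightest 25% of detected genes.

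Rpl10l, which replaces the X-linked Rpl10 in male germ cells, had levels of 4.48, 4.38 and 4.41 by its brightest probe. Rpl39l, the male germ cell form of the X-linked Rpl39, had levels of 5.62, 5.68 and 5.68. All 6 testis markers were also well above their local background, at mean levels from −4.66 (Tnp2) to 1.08 (Sycp3), but the mean signals of Prm1, Prm2, Tnp1 and Tnp2 (115, 44.6, 41.9 and 23.8 units) lay below the highest negative control spot of replicates 2 and 3. That of Tnp2 also lay below the highest such spot of replicate 1 (41.7 units). Rpl22l1, a homologue of Rpl22, had levels of 6.99, 7.02 and 7.00. Rps27l, a homologue of Rps27 known as a target of p53, had levels of 7.28, 7.43 and 7.31. Rpl32l had levels of 8.15, 8.24 and 8.18. Paralogues and processed pseudogenes share much of their sequence with the parent mRNA, and how far these probes also bind the parent mRNA was not tested.

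The replicate arrays were close for most of these genes. The median SD over the 3 arrays was 0.0526 log2 units (range 0.0083 to 0.454, 84 genes), against 0.0728 over all detected named genes and 0.0545 over the brightest 25%. Of the alternatives, only that without replicate 3 turned the order, with 0.0659 for these genes and 0.0648 for all detected genes. An SD under 0.1 was found for 75 of the 84 genes (89.3%), against 66.7% of all detected genes and 85.6% of the brightest 25%. The spread of the ribosomal protein genes was thus close to that of other bright genes. The lowest SDs belonged to Rpl7a (levels 8.22, 8.23 and 8.21), Rplp2 and Rpl27 (8.33, 8.34 and 8.31). The median SD was 0.047 over small subunit genes and 0.058 over large subunit genes.

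Replicate 2 stood slightly above the others over most of these genes. Its level exceeded that of replicate 1 in 75 of the 84 genes, by a median of 0.079 log2 units, while over all detected genes it was higher in 58.4%, by a median of 0.026. In the brightest 25% it was higher in 63.7%, by a median of 0.032. Replicate 3 exceeded replicate 1 in 63 genes by a median of 0.030, against 50.2% of all detected genes and 46.5% of the brightest 25%. These shifts depended on the scaling of the arrays. After quantile normalization the median of replicate 2 over replicate 1 was 0.0030, with 42 of 84 genes higher, and in the deposited table of log2 values it was 0.0047. After quantile normalization the median of replicate 3 over replicate 1 turned to −0.0084, with 39 of 84 genes higher. With each array scaled to its median, replicate 3 was the highest array, by 0.053 over replicate 2, in place of 0.049 below it. With 1 array for each replicate a shift of the whole array cannot be told apart from a shift in the cells.

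Only Rpl15 and Rps19 had levels that differed by more than 0.5 log2 units between arrays, which is 2.38% of the 84 genes, against 6.24% of all detected genes and 1.95% of the brightest 25%. Rpl15, a large subunit protein, had levels of 8.31, 7.55 and 8.36 on replicates 1 to 3. Rps19, a small subunit protein whose gene is the one most often mutated in Diamond-Blackfan anemia, had levels of 7.41, 6.73 and 7.45. In both genes replicates 1 and 3 lay within 0.05 log2 units of each other. Both passed 0.5 log2 units after quantile normalization and in the deposited table as well. When replicate 2 was left out, no ribosomal protein gene passed this limit.

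Where other probes of the same gene were detected, they did not repeat such a departure. By probe, 5 of the 173 detected probes had a range over 0.5 log2 units, against 10.6% of all detected probes, and in all 5 replicate 2 was the lowest. The same held for most bright probes with such a range, in 105 (all but 2) inside and 90 of 114 outside the marked array blocks described below, taken over the brightest 25% of all detected probes. The 5 ribosomal protein probes were the brightest probe of Rpl15, the single probe of Rps19 and 1 of 2 probes of Rpl10l (2.11, 1.08 and 2.21). The others were 1 of 3 probes of Rpl26 (7.53, 7.01 and 7.61) and 1 of 4 probes of Rpl31 (7.00, 6.20 and 7.04). The other 7 probes of Rpl15, Rpl10l, Rpl26 and Rpl31 had ranges of 0.031 to 0.121 and lay between 0.095 below and 0.090 above the mean of replicates 1 and 3 on replicate 2. The second Rpl15 probe had levels of 4.52, 4.40 and 4.47. For Rps19 there was no second probe to compare. Of the 52 genes with several detected probes, none had every probe beyond this limit.

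The position of the probes on the array moved with these values. Each array was divided into 48 blocks of spots, and 5 blocks were marked because at least 10 spots in them were called non-uniform on some replicate. These 5 blocks held 138 of the 187 non-uniform spots of replicate 2 but 1 of 25 and 1 of 8 on replicates 1 and 3. All 5 probes above lay in marked blocks, 3 of them (Rps19, Rpl26 and Rpl31) in the same block, although 22 of the 174 ribosomal protein probes (12.6%) and 10.2% of all probes lay in such blocks. A range over 0.5 log2 units was thus found for 5 of the 22 ribosomal protein probes in marked blocks (22.7%) and for none of the 151 detected ones in other blocks. For all detected probes these shares were 21.8% in marked and 9.39% in other blocks, and for the brightest 25% 13.1% and 1.51%. The median SD was 0.088 over the 22 ribosomal protein probes in marked blocks and 0.048 over the 151 others. On replicate 2 relative to the mean of replicates 1 and 3, the lower quartile of the ribosomal protein probes was −0.39 in marked blocks and 0.03 in the others. Further probes in marked blocks that were low on replicate 2 belonged to Rps16 (−0.43), Rps6 (−0.27), Rpl37 (−0.21), Rps18 (−0.20) and Rpl30 (−0.15). Others there were not low, such as that of Rpl39 (0.15), and the median of the 22 was −0.02. Low values were also found outside the marked blocks, down to −0.32 among the 151 probes there. The part of the position on the array in the values of Rpl15 and Rps19 was not tested.

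**Figure D4:**
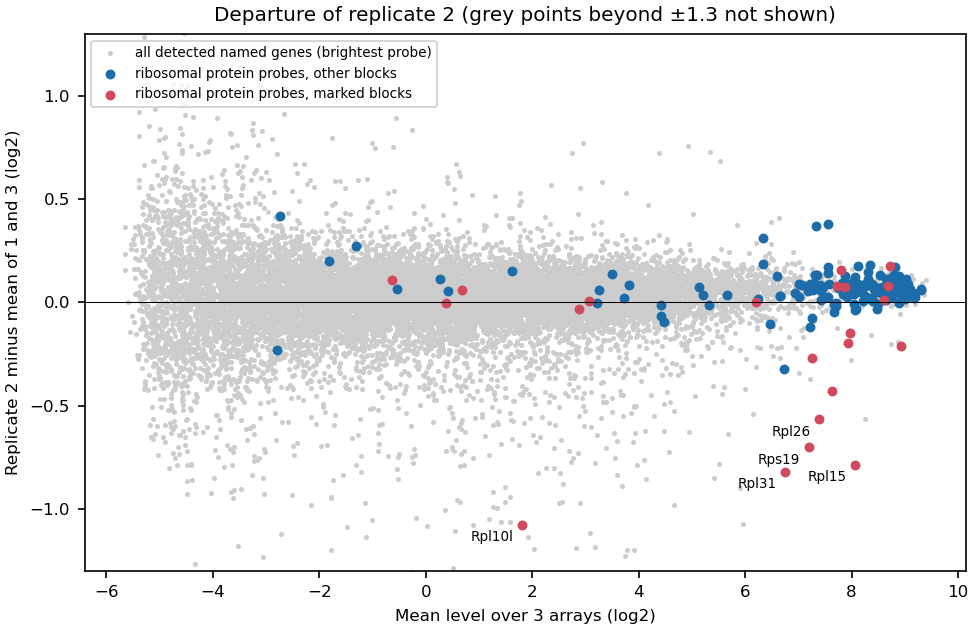
Level on replicate 2 minus the mean of replicates 1 and 3 (vertical axis, log2) against the mean level (horizontal axis, log2) for the 151 detected ribosomal protein probes outside (blue) and the 22 inside (red) the marked blocks, over all detected named genes (grey). The 5 named probes, all red, lie 0.57 to 1.08 below 0, while the median of the blue points is 0.062 above it.

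Rps15 and Rpl21 came next in spread, with replicate 2 the highest. Rps15, a small subunit protein, had levels of 7.44, 7.82 and 7.43 by its brightest probe and of 6.24, 6.55 and 6.24 by its second probe. Both Rps15 probes were thus higher on replicate 2, by 0.38 and 0.31 log2 units over the mean of the other arrays, and neither lay in a marked block. After quantile normalization these values were 0.33 and 0.25, and with scaling to the median 0.30 and 0.23. Rpl21, a large subunit protein, had levels of 7.25, 7.57 and 7.16 by its brightest probe, while its other probes read −0.01 and 0.07 on replicate 2 relative to the mean of replicates 1 and 3. These other probes were far dimmer, with mean levels of 0.37 and −0.55 against 7.33. The former lay in a marked block. The mean signal of the latter (409 units) lay below the highest negative control spot of replicate 2 (533 units).

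**Figure D5:**
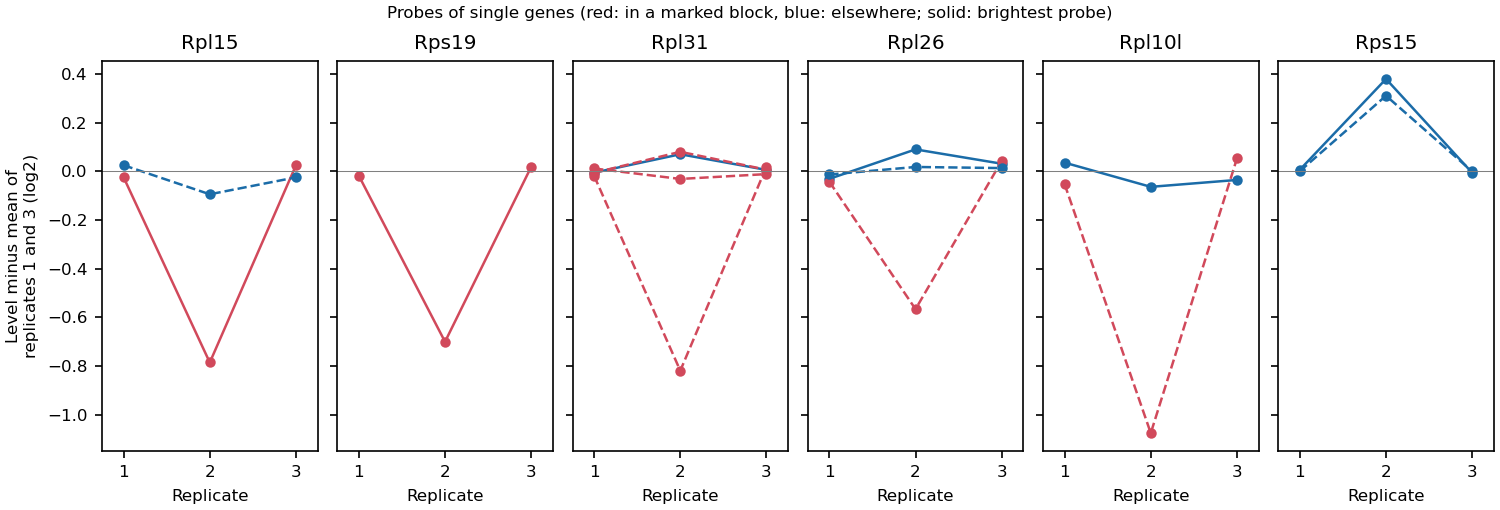
Level of each detected probe of 6 genes on replicates 1 to 3 (horizontal axis) relative to the mean of replicates 1 and 3 of the same probe (vertical axis, log2), with solid lines for the brightest probe, dashed lines for the others, red for probes in a marked block and blue elsewhere. The low value of replicate 2 is found in 1 probe of each of the first 5 genes, whereas both Rps15 probes are high on replicate 2 (0.38 and 0.31).

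Probes of the same gene often differed far more from each other than the arrays did. Among the 52 genes with several detected probes, the mean levels of the probes spanned more than 1 log2 unit in 34 and more than 5 in 13. The median span was 1.44. Rpl6, a large subunit protein, had 3 probes at mean levels of 8.73, 8.48 and 8.42 and the other at −2.73. Rps15a, of the small subunit, had probes at 8.08 and 8.05 and the other at −2.79. For Rps27a the probes stood at 9.05, 8.11 and −1.82, for Rps25 at 7.81 and −0.63, and for Rps6 at 8.30, 7.26 and 3.07. Rpl17, with 7 probes, had 6 between 6.66 and 7.90 and 1 at 1.62. In each of these genes the dimmest probe was detected on all arrays and was the lowest on each. Those of Rpl6, Rps15a and Rps27a had mean signals of 90.4, 86.8 and 170 units, below the highest negative control spot of replicates 2 and 3. That of Rps25 (385 units) lay below the highest negative control spot of replicate 2. Which part of the mRNA each probe covers is not known from the files. Whether these differences lie between transcripts or between probes was therefore not tested.

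Only 1 of the probes had repeated spots within an array, a probe of Rpl23, a large subunit protein that also binds Mdm2. It is printed 10 times on each array and had mean levels of 3.24, 3.30 and 3.23, with SDs over the 10 spots of 0.085, 0.102 and 0.116. A difference between arrays was not detected by limma's moderated F test over the spots (Benjamini-Hochberg adjusted p = 0.405 over 284 probes). Of all 284 such probes, 36.6% differed between arrays at an adjusted p under 0.05. Replicate 2 minus replicate 1 was 0.05 ± 0.04 (SE) log2 units for this probe. The other probes of Rpl23 had levels of 8.68, 8.73 and 8.62 and of 8.37, 8.44 and 8.34. Spots of 1 array share its RNA, so this test compares arrays and not cultures.

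Genes that act with these proteins were read as lists. Of the ribosomal proteins that the name rule misses, 4 of 5 were on the arrays and all 4 were detected. Fau, made as a fusion of a ubiquitin-like protein with Rps30, had levels of 9.08, 9.20 and 9.05. Rack1, a scaffold on the small subunit, had levels of 9.05, 9.09 and 9.09, and Rpl36al had levels of 6.55, 6.53 and 6.43. All 11 translation factors known for TOP mRNAs were detected, with a median SD of 0.049. Eef1a1, the elongation factor that brings tRNA to the ribosome, had levels of 8.38, 8.46 and 8.37. Eef2, the factor that moves the ribosome along, had levels of 6.99, 6.79 and 7.27, the widest of the 11.

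All 24 genes of ribosome biogenesis were detected, with a median SD of 0.049. Among them Npm1, the nucleolar chaperone nucleophosmin, had levels of 8.40, 8.50 and 8.40. Rrn3, the initiation factor of RNA polymerase I, was the 1 gene of this list with a range over 0.5 log2 units, with 4.40, 3.70 and 4.24. Of 14 genes that signal to the ribosome all were detected, with a median SD of 0.059. Of the RSK kinases, Rps6ka1 had levels of 5.12, 5.13 and 5.13 and Rps6ka2 had levels of −2.59, −2.62 and −2.65. Larp1, the TOP binding protein, had levels of 5.56, 5.59 and 5.53. Eif4ebp1, the repressor of the cap binding protein Eif4e, had levels of 7.00, 7.19 and 7.04. Of 78 mitochondrial ribosomal proteins 77 were detected (98.7%), at mean levels from −0.63 to 6.30, and Mrpl21 was detected on none of the arrays. Lists of cell type markers aside, none of these lists had a median SD above the 0.0728 of all detected genes. All 8 embryonic stem cell markers were detected, from Nanog (0.17, 0.26 and 0.21) to Dppa5a (8.38, 8.45 and 8.32), and Pou5f1 (4.19, 4.87 and 4.11) was the 1 with a range over 0.5 log2 units. Of 6 fibroblast markers, Col1a1, Col1a2 and Thy1 were detected on all arrays at mean levels from −1.41 to 0.06, Col3a1 was detected on 1 array, and Lum and Postn on none. Detection in these lists is against local background. The mean signals of Rps6ka2 (97.1 units) and Col1a1 (225) lay below the highest negative control spot of replicates 2 and 3. Those of Rps6kb2 (265), Mknk1 (292), Mrpl35 (386), Col1a2 (433), Rrp12 (452) and Rps6ka3 (463) lay below that of replicate 2.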

How the data were processed

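Scanner files of 3 arrays were used. The authors made them with Agilent Feature Extraction 10.7.3.1, and the deposited processed signal is an intensity on a linear scale, with background subtracted and trends removed within each array. The deposited table of log2 values has columns of nearly the same distribution, and how it was normalized is not given in the sources used here. It served as an alternative. Spots flagged as outliers were left out, spots of a probe were averaged, and the log2 intensity was centred on the 75th percentile of the array's 59305 spots that were not controls. A probe was detected where at least 50% of its spots were well above background. A gene was represented by the probe of highest mean level. Of the 55681 probes, 27235 were matched to a gene through the RefSeq accession (GRCm38.p6 names, no coordinates), and 28446 were not. Spot tests used limma 3.58.1 in R 4.3.3 with Benjamini-Hochberg adjustment, after a test on simulated data. Start sites came from the RefSeq promoter table (GRCm38.p6).

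The members, the gene lists, the limit of 0.5 log2 units and the marked blocks were chosen with earlier results of these data known, and the motifs were chosen from general knowledge of these promoters. Genes named in the text were those not detected, paralogues with an l suffix and their parents, genes with a probe of 10 spots, genes with a range over 0.5 log2 units, the 3 with the smallest SD, and 20 chosen by role. Genes that exceeded the limit by a second probe, Rps15, Rpl21, and those with probes far apart were named after their values were seen, as were the sequences shown. Rpl32l was not in the list of paralogues written at the start and was added because it meets the rule. Alternatives covered scaling, background correction, the choice of probe, filters, marked blocks and each replicate left out. Protein sequences were not used here. A few named genes are not reported here, although the counts include them.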

Additional observations from a re-analysis of the deposited data

Results flagged for a closer look

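Probes that carry a ribosomal protein name but an accession outside the rule gave signal well above background on all 3 arrays. Rps4l, a gene related to Rps4x whose accession is of a non-coding transcript, had a mean signal of 58376 ± 1973 (SD, n = 3). Rpl34-ps1, a pseudogene of Rpl34, had a mean signal of 73367 ± 2825 (SD, n = 3). Rps15a-ps6, a pseudogene of Rps15a, had a mean signal of 461 ± 45.1 (SD, n = 3). The highest negative control spot read 41.7, 533 and 232 on replicates 1 to 3, so Rps15a-ps6 (431, 440 and 513) did not exceed it on replicate 2. How much of these signals comes from the mRNA of the parent genes was not tested.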

How the results depend on the processing

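The count of detected genes stayed at 84 of 84 under the alternatives, except for 83 where every probe of a gene had to be detected. With the l suffix left out, it was 77 of the 77 genes that remained. The median SD of 0.0526 was 0.0297 after quantile normalization, and 0.0236 to 0.0659 with 1 replicate left out, lowest without replicate 2. For all detected genes it was 0.0728, with 0.0722 after quantile normalization and 0.0509 without replicate 2. Without replicate 3 it was 0.0648, below the 0.0659 of the ribosomal protein genes, while in every other alternative it was above theirs. In the deposited table the median SD was 0.0326 for the ribosomal protein genes and 0.0727 for all detected genes. The median of replicate 2 minus replicate 1 (0.079) was 0.0030 after quantile normalization, 0.0248 with scaling to the median and 0.0047 in the deposited table. That of replicate 3 minus replicate 2 (−0.049) was 0.0531 with scaling to the median. The 2 genes with a range over 0.5 log2 units were 0 without the marked blocks, and 0 to 2 with 1 replicate left out, 0 without replicate 2. Leaving out the marked blocks kept 81 genes and removed the very probes that had given the 2 genes this range. Rps19 then had no probe, and Rpl15 was read by its second probe, so this 0 does not show what the blocks did to the values. With the mean of all detected probes of a gene, the count was also 2, but the genes were Rpl10l and Rps19. Leaving out non-uniform spots could change nothing, since flagged spots were already left out and no ribosomal protein probe had a non-uniform one. For the Rpl23 probe the adjusted p ranged from 0.303 to 0.939. The cause of these changes was not tested. No paired analysis was possible because the 3 samples are replicates of a single group. Array data give no counts, so precision rests on 3 arrays and 1 spot for 173 of the 174 probes.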
